A study of Mus musculus with 11 samples.

Results

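Vcam1, Icam1, Alcam and Mcam, which encode adhesion molecules of the immunoglobulin superfamily, and Olr1, which encodes a lectin-like receptor for oxidised low-density lipoprotein, were followed in 3T3-L1 adipocytes under 3 treatments. All probe sets of the array whose annotation gives exactly 1 gene symbol, and that symbol is one of these 5 genes, were taken. They are 5 of the 18193 genes named on the array and hold 11 of its 45101 probe sets: 5 for Alcam, 3 for Vcam1 and 1 each for Mcam, Icam1 and Olr1. 3T3-L1 is a mouse cell line whose preadipocytes are turned into adipocytes in culture. The groups were chronic insulin (CI, 2 arrays, 10 nM insulin in 4 additions over 2 days), TNF (3 arrays, 2 ng/ml of the inflammatory cytokine for 4 days), DEX (3 arrays, 20 nM dexamethasone, a synthetic glucocorticoid, for 8 days) and untreated control (3 arrays). The labels present the 3 treatments as models of insulin resistance, staggered so that all cells were of the same age after differentiation. Dexamethasone was carried in 0.01% ethanol, which its protocol names as the control, but the label of the control arrays says untreated, and the labels leave unsaid whether those cells had the carrier. All groups come from 1 cell line, and no label states that the arrays of a group were grown as separate cultures. The p-values therefore speak of the spread between these arrays alone, and that spread may be technical.

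Vascular endothelium displays the proteins of Vcam1 and Icam1 when it meets inflammatory cytokines, and leukocytes then bind them through integrins: the Vcam1 protein holds integrins with the Itga4 subunit, and the Icam1 protein those with the Itgb2 subunit. Both genes are textbook targets of NF-kappaB, the transcription factor that TNF activates, and glucocorticoids are known to restrain NF-kappaB. The Alcam protein binds itself and the T-cell receptor Cd6, and the Mcam protein is an adhesion receptor of endothelium and pericytes that binds laminins holding the Lama4 chain. The Olr1 protein takes up oxidised lipoprotein in endothelium and macrophages. Fat cells are not endothelium, and adhesion of leukocytes to them is of interest because inflamed fat tissue fills with macrophages.

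Genes known to answer TNF and glucocorticoids followed the labels. Saa3, an acute-phase gene, averaged 18180 ± 1130 intensity units in TNF and 399.4 ± 50.4 in control (SD, n = 3 each), and Fkbp5, a direct target of the glucocorticoid receptor, averaged 8045 ± 83.1 in DEX and 1214 ± 59.5 in control (SD, n = 3 each). The median intensity of an array was 124.5 to 129.5. The adipocyte genes Adipoq (20820 to 23390) and Fabp4 (21650 to 23320) were near the top of the scale on all 11 arrays. The pan-leukocyte gene Ptprc (22.3 to 28.2) and the endothelial genes Tek (35.0 to 42.5) and Pecam1 (43.2 to 56.0) had means under 51.7, the limit below which probe sets were not tested, and Cdh5 lay just over it (53.0 to 65.1). Other markers of those cells were brighter: Kdr averaged 319.4 and Flt1 313.9 among 12 endothelial genes, of which 7 passed the limit, and Lyz2 averaged 2122 and Csf1r 433.5 among 14 genes of macrophages and leukocytes, of which 12 passed it. Of the 11 probe sets of the 5 genes 10 passed that limit. The exception, Alcam 1443086_at, had a mean of 50.6 over all arrays.

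Vcam1 was higher in TNF and lower in DEX on all 3 of its probe sets, and lower by a smaller margin in CI on 2 of them. On 1451314_a_at its intensity was 913.9 and 918.0 in CI, 6309, 5819 and 5878 in TNF, 808.5, 773.2 and 846.8 in DEX, and 1101, 1101 and 1166 in control. The groups did not overlap, and TNF stood far above the other 3. On the log2(intensity + 16) scale used for every fold change here, the change was 2.40 in TNF (SE 0.0562, adjusted p = 2.43e-11), a 5.28-fold difference, and -0.46 in DEX (SE 0.0562, adjusted p = 3.22e-05). In such bulk samples fewer cells of a type and less RNA per cell cannot be told apart.

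On 1448162_at Vcam1 had 1089 and 1213 in CI, 5303, 5016 and 4336 in TNF, 850.3, 723.7 and 787.6 in DEX, and 1779, 1543 and 1460 in control. Again no 2 groups overlapped, in the same order. TNF was higher than control by 1.61 (SE 0.0910, adjusted p = 5.36e-08, 3.04-fold), and DEX was lower (95% interval of the log2 change -1.20 to -0.81, SE 0.0910, adjusted p = 2.02e-06). On 1415989_at the intensity was 689.0 and 866.9 in CI, 3422, 3303 and 2790 in TNF, 584.6, 498.6 and 615.6 in DEX, and 1168, 884.4 and 952.6 in control. The fold changes there were 1.65 in TNF (SE 0.117, adjusted p = 4.22e-07) and -0.80 in DEX (SE 0.117, adjusted p = 0.000175).

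**Figure D1:**
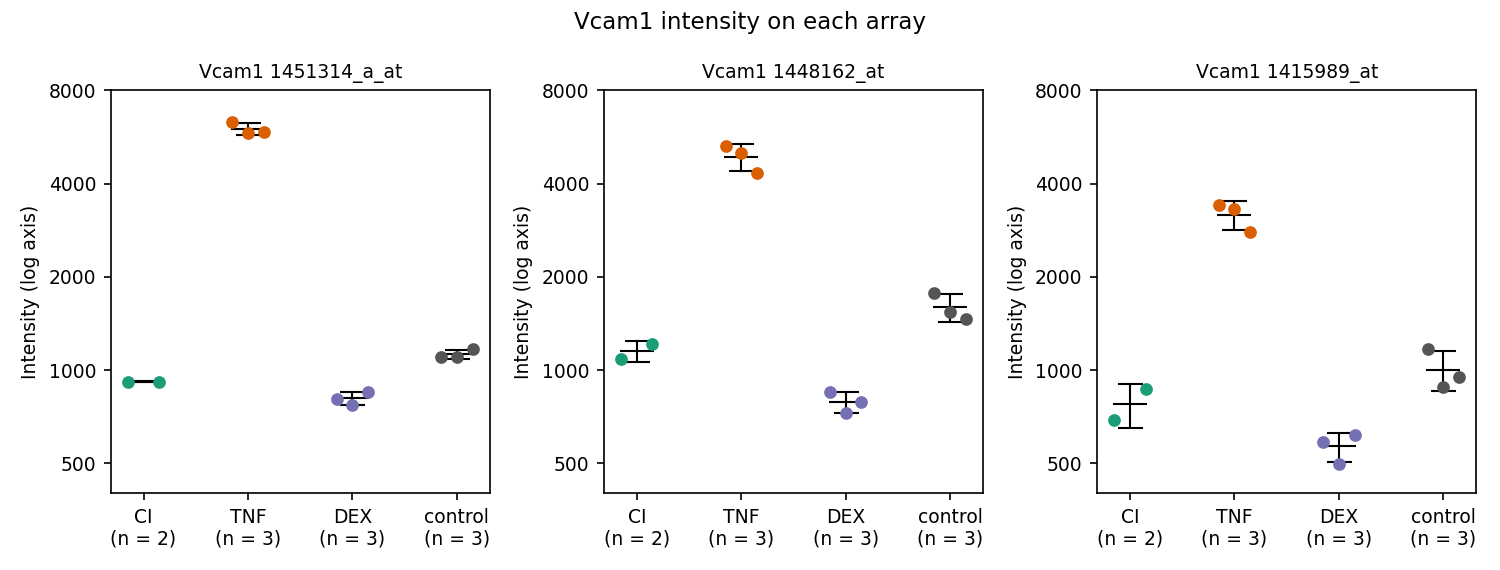
Intensity of the 3 Vcam1 probe sets on each array (log axis), with the mean and SD of each group as bars. TNF arrays lie between 2790 and 6309 and above all others, and DEX arrays lie between 498.6 and 850.3 and below all control arrays.

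In CI the Vcam1 change was small: -0.29 on 1451314_a_at (SE 0.0628, adjusted p = 0.00817), -0.46 on 1448162_at (SE 0.102, adjusted p = 0.00878) and -0.36 on 1415989_at, which did not pass (SE 0.130, adjusted p = 0.0945). Both CI arrays lay below every control array on each probe set. The calls rest on both CI arrays: without CI replicate 1 neither 1451314_a_at (adjusted p = 0.0627) nor 1448162_at (0.111) passed, and without CI replicate 2 1451314_a_at did not (0.0505).

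The levels of Vcam1 thus ran from TNF through control and CI to DEX. TNF exceeded DEX by 2.87, 2.61 and 2.45 on 1451314_a_at, 1448162_at and 1415989_at (adjusted p = 3.49e-13, 1.01e-10 and 2.24e-09), and exceeded CI by 2.69, 2.07 and 2.01 (adjusted p = 2.57e-11, 9.26e-09 and 1.06e-07). DEX was lower than CI on 1448162_at (-0.54, adjusted p = 0.000982) and on 1415989_at (-0.44, adjusted p = 0.0194). On 1451314_a_at these neighbours missed the threshold (-0.18, adjusted p = 0.0509, 95% interval -0.31 to -0.04). The call on 1415989_at was lost without DEX replicate 2 (adjusted p = 0.0671). It was also lost without CI replicate 2, which leaves a lone CI array (-0.28). The value on 1451314_a_at passed without TNF replicate 1 (0.0499) or DEX replicate 3 (0.0376), and under other settings of the processing given below.

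The size of the Vcam1 change varied with the probe set. In TNF the change on 1448162_at was 0.80 below that on 1451314_a_at, and in DEX 0.54 below. For 1415989_at against 1451314_a_at the differences were -0.75 and -0.34. In these 4 comparisons the within-array log2 differences of treated and control arrays did not overlap (exact permutation p = 0.1 each, the smallest that 3 against 3 arrays can give, so the threshold cannot be reached). The difference in TNF between 1415989_at and 1448162_at was 0.05 (exact permutation p = 0.8). In DEX that pair differed by 0.20, also without overlap (exact permutation p = 0.1). Probe sets of 1 gene are not replicates of the treatment, and which transcripts each of them reads was not tested.

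Alcam was higher in CI and lower in DEX on all 4 tested probe sets. Its probe set 1426300_at read 1019 and 1048 in CI, 364.4, 368.3 and 390.5 in TNF, 247.2, 234.3 and 281.7 in DEX, and 478.9, 474.7 and 535.8 in control. Both CI arrays stood far above the rest, and no 2 groups overlapped. The fold changes were 1.04 in CI (SE 0.0786, adjusted p = 7.77e-06, 2.05-fold), -0.39 in TNF (SE 0.0703, adjusted p = 0.00145) and -0.92 in DEX (SE 0.0703, adjusted p = 3.32e-07).

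The other Alcam probe sets moved the same way in CI and DEX. 1426301_at read 777.1 and 887.6 in CI, 363.8, 378.0 and 415.2 in TNF, 207.8, 218.1 and 218.9 in DEX, and 428.5, 435.0 and 538.2 in control. Its changes were 0.82 in CI (adjusted p = 0.000128) and -1.06 in DEX (adjusted p = 5.49e-07). 1437467_at spanned 678.4 to 772.7 in CI, 311.3 to 425.8 in TNF, 201.8 to 218.5 in DEX and 342.6 to 453.6 in control, and 1437466_at 384.1 to 399.1, 227.0 to 273.6, 150.2 to 161.0 and 245.6 to 273.9 in the same groups. On both, CI stood above and DEX below all control arrays. 1437467_at was at 0.88 in CI and -0.85 in DEX (adjusted p = 0.000508 and 7.11e-05), and 1437466_at at 0.54 and -0.70 (adjusted p = 0.000506 and 4.08e-06). The dim 1443086_at, which was not tested, averaged 66.5 ± 4.37 in CI (SD, n = 2), 45.5 ± 4.97 in TNF, 44.2 ± 0.822 in DEX and 51.6 ± 5.61 in control (SD, n = 3 each). Both CI arrays of that probe set lay above all control arrays. The DEX arrays lay below control only narrowly, the highest at 45.1 against 45.3 for the lowest control array.

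**Figure D2:**
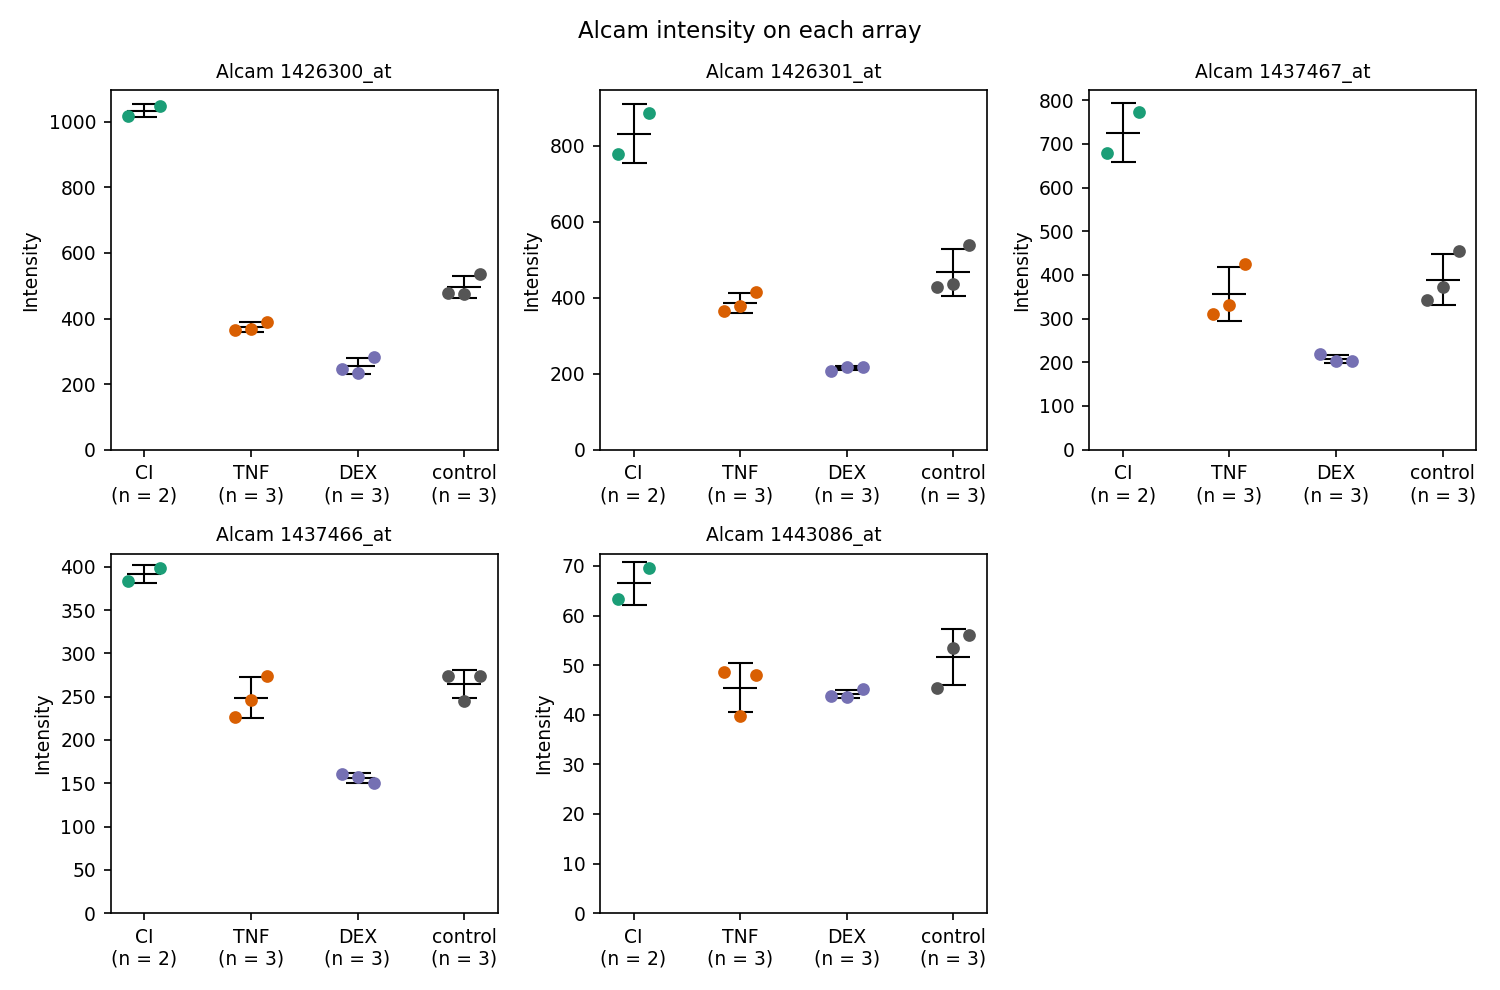
Intensity of the 5 Alcam probe sets on each array, with the mean and SD of each group as bars. CI arrays lie above all others on every probe set, at 1019 and 1048 on 1426300_at, and DEX arrays below all control arrays. On the untested 1443086_at the highest DEX array (45.1) lies just under the lowest control array (45.3).

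For TNF the 4 tested Alcam probe sets all had estimates below control, but they differed in size and in whether they passed. 1426300_at was lower than control, as given above, while 1437466_at (-0.08, adjusted p = 0.422) and 1437467_at (-0.13, adjusted p = 0.464) did not pass and their TNF arrays overlapped control. 1426301_at passed narrowly, at -0.26 (adjusted p = 0.0453). Its call was lost when control replicate 2 (0.0528), control replicate 3 (0.189), TNF replicate 1 (0.150), TNF replicate 2 (0.119), DEX replicate 1 (0.0544) or DEX replicate 3 (0.0548) was left out. The within-array difference between 1426300_at and 1437466_at was -0.31 in TNF relative to control, without overlap (exact permutation p = 0.1, the smallest possible). That pair was the widest for Alcam in TNF. The narrowest, 1437466_at against 1437467_at, was at 0.04 (exact permutation p = 0.9). TNF was lower than CI on the 4 tested Alcam probe sets (-0.63 to -1.43, adjusted p = 3.54e-05 to 2.51e-08) and higher than DEX (0.53 to 0.80, adjusted p = 0.000231 to 6.89e-06). DEX was lower than CI by the widest margin, -1.25 to -1.96 (adjusted p = 1.52e-07 to 5.32e-10), which on 1426300_at is 3.89-fold.

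Markers of other cells differed between the groups too. Over the 15623 genes tested with 1 probe set each, 14.9% passed in CI (7.18% higher, 7.76% lower), 22.1% in TNF (12.6% higher, 9.54% lower) and 25.1% in DEX (12.5% higher, 12.7% lower). Of 10 tested markers of preadipocytes and fibroblasts, cells that also express Vcam1, 8 fell and 1 rose in DEX (median -1.09), 5 fell and 0 rose in CI (-0.45), and 3 rose and 2 fell in TNF (-0.15). Their summed intensity was 40080 to 43480 in CI, 49140 to 54170 in TNF, 23430 to 27970 in DEX and 47870 to 58540 in control. In TNF 4 of 12 tested genes of macrophages and leukocytes rose and 1 fell, with Cd14 at 1.48 and Cd74 at 1.91. Means of Adgre1, Tyrobp and Fcer1g were 96.6, 90.2 and 102.7 in TNF and 108.2, 102.7 and 105.5 in control. In DEX 1 rose and 3 fell, with Mpeg1 at -1.67. Cd14 averaged 794.9 ± 71.5 in DEX and 418.2 ± 38.4 in control (SD, n = 3 each). Csf1r and Adgre1 averaged 416.2 and 106.8 in DEX, near their control means of 445.3 and 108.2. In CI 1 rose and 2 fell. Their sums were 4753 to 5121 in CI, 7641 to 8059 in TNF, 4137 to 4565 in DEX and 5456 to 5669 in control, with Ptprc and Itgam under the limit for testing. The TNF sum exceeded control mostly through Cd14, Cd74 and Lyz2. The means of these genes were 1201 ± 138, 1049 ± 59.3 and 2948 ± 129 in TNF. In control the means were 418.2 ± 38.4, 267.5 ± 24.3 and 2325 ± 86.8 (SD, n = 3 each). Of 11 adipocyte markers 1 fell in CI, 6 fell in TNF, and 2 rose and 4 fell in DEX, with sums of 134100 to 136200 in CI, 113800 to 116700 in TNF, 133600 to 143800 in DEX and 137300 to 139400 in control. The part of these shifts in the results for Vcam1, Alcam and Olr1 was not tested.

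Mcam, read by 1 probe set, was lower in TNF. Its intensity was 1949 and 2280 in CI, 1342, 1280 and 1259 in TNF, 1696, 1534 and 1870 in DEX, and 2154, 1847 and 2086 in control. All TNF arrays lay below every other array, while CI overlapped control and 1 DEX array lay above the lowest control array. The change in TNF was -0.64 (SE 0.0831, adjusted p = 0.000109), or 1.56-fold lower.

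In CI Mcam was at 0.06 (SE 0.0929, adjusted p = 0.771, 95% interval -0.14 to 0.26). In DEX it was at -0.25 (SE 0.0831, adjusted p = 0.0416). That DEX call was lost without control replicate 1 (adjusted p = 0.148), control replicate 3 (0.115), TNF replicate 1 (0.0515), TNF replicate 2 (0.0561), DEX replicate 1 (0.0872) or DEX replicate 2 (0.154). TNF was also lower than CI (-0.70, adjusted p = 6.48e-05) and than DEX (-0.39, adjusted p = 0.00311). DEX was lower than CI as well (-0.31, adjusted p = 0.0207), a call lost without CI replicate 2 (0.254) or DEX replicate 2 (0.0704). Of 10 tested markers of pericytes and smooth muscle, cells known for high Mcam, 0 rose and 1 fell in CI, 4 rose and 1 fell in TNF, and 0 rose and 3 fell in DEX (median -0.05, -0.07 and -0.09). Over all genes tested the shares passing were 14.9% in CI, 22.1% in TNF and 25.1% in DEX. Acta2, smooth muscle actin, was at 0.94 in TNF and Tagln at 0.57, while Myh11 was at -0.29. The summed intensity of the 11 such markers on the array was 5908 to 6224 in CI, 12050 to 12340 in TNF, 6312 to 6595 in DEX and 7270 to 8020 in control, and its part in the Mcam result was not tested. The TNF sum was carried by Acta2, at 7674 ± 303 in TNF and 3995 ± 271 in control, and Pdgfrb, at 2656 ± 164 in TNF and 1739 ± 47.3 in control (SD, n = 3 each).

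Olr1 was dim, and higher in TNF and DEX. Its probe set read 81.7 and 73.0 in CI, 85.1, 69.4 and 98.5 in TNF, 72.1, 94.7 and 66.1 in DEX, and 44.4, 34.7 and 67.4 in control. Control replicate 3 reached into the DEX range, and all CI and TNF arrays lay above all control arrays. The change was 0.55 in CI (SE 0.177, adjusted p = 0.0563), 0.65 in TNF (SE 0.158, adjusted p = 0.0110) and 0.55 in DEX (SE 0.158, adjusted p = 0.0229), so CI did not pass.

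These Olr1 calls depended on single arrays. TNF did not pass without control replicate 2 (adjusted p = 0.0591), and DEX did not without control replicate 1 (0.0754), control replicate 2 (0.113) or DEX replicate 2 (0.0943), while CI passed without control replicate 3 (0.00531) or DEX replicate 2 (0.0396). No difference between 2 treatments passed (TNF minus CI 0.10, TNF minus DEX 0.10, DEX minus CI -0.01, adjusted p = 0.716, 0.659 and 0.987), with 95% intervals that reach from -0.39 to 0.48 over the 3. Differences of such a size were not detectable here, and at such low intensity a fold change is understated.

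Icam1 did not pass in any of the 6 comparisons. Its probe set read 71.7 and 79.0 in CI, 75.8, 78.8 and 61.2 in TNF, 68.2, 63.3 and 68.9 in DEX, and 70.5, 68.9 and 74.7 in control. TNF arrays lay on both sides of control, and the highest DEX array lay just under the lowest control array. The TNF change was 0.00 (SE 0.0741, adjusted p = 0.978, 95% interval -0.16 to 0.16), that in CI 0.06 (adjusted p = 0.708, -0.11 to 0.24) and that in DEX -0.08 (adjusted p = 0.511, -0.24 to 0.08). The mean over all arrays, 71.0, is at percentile 33.1 of all probe sets, and the deposited table has no detection call. Whether this probe set reads any Icam1 transcript in these cells cannot be told from the values.

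**Figure D3:**
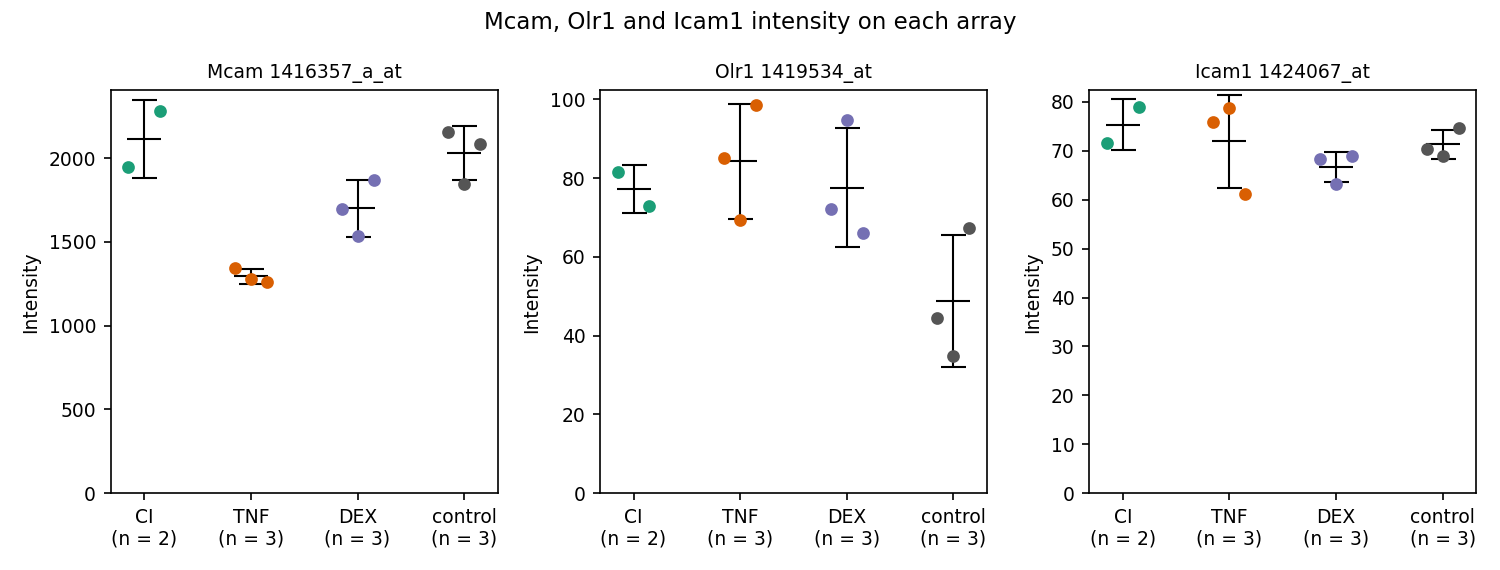
Intensity of the probe sets of Mcam, Olr1 and Icam1 on each array, with the mean and SD of each group as bars and each axis starting at 0. TNF arrays of Mcam (1259 to 1342) lie below all others, control arrays of Olr1 (34.7 to 67.4) are the lowest as a group, and the Icam1 groups lie together between 61.2 and 79.0.

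Of the 10 tested probe sets, 4 were higher and 2 lower in CI, 4 higher and 3 lower in TNF, and 1 higher and 8 lower in DEX. Over all 33782 probe sets tested, 12.9% passed in CI (6.41% higher, 6.45% lower), 19.0% in TNF (10.8% higher, 8.15% lower) and 22.2% in DEX (11.3% higher, 10.9% lower). The counts over the 5 genes are dominated by Alcam and Vcam1, which have several probe sets each. Between treatments 8 passed for TNF against CI (3 higher, 5 lower), 8 for TNF against DEX (7 higher, 1 lower) and 7 for DEX against CI (0 higher, 7 lower), where 30.0% (15.5% higher, 14.5% lower), 29.3% (14.8% higher, 14.6% lower) and 28.5% (14.1% higher, 14.3% lower) of all probe sets passed. The split of all probe sets between higher and lower depended on the scaling in the comparisons with TNF: in TNF against control 65.0% of those passing were higher with median centring and 49.6% with quantile normalization, against 57.0% here. The comparisons with control share the 3 control arrays.

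**Figure D4:**
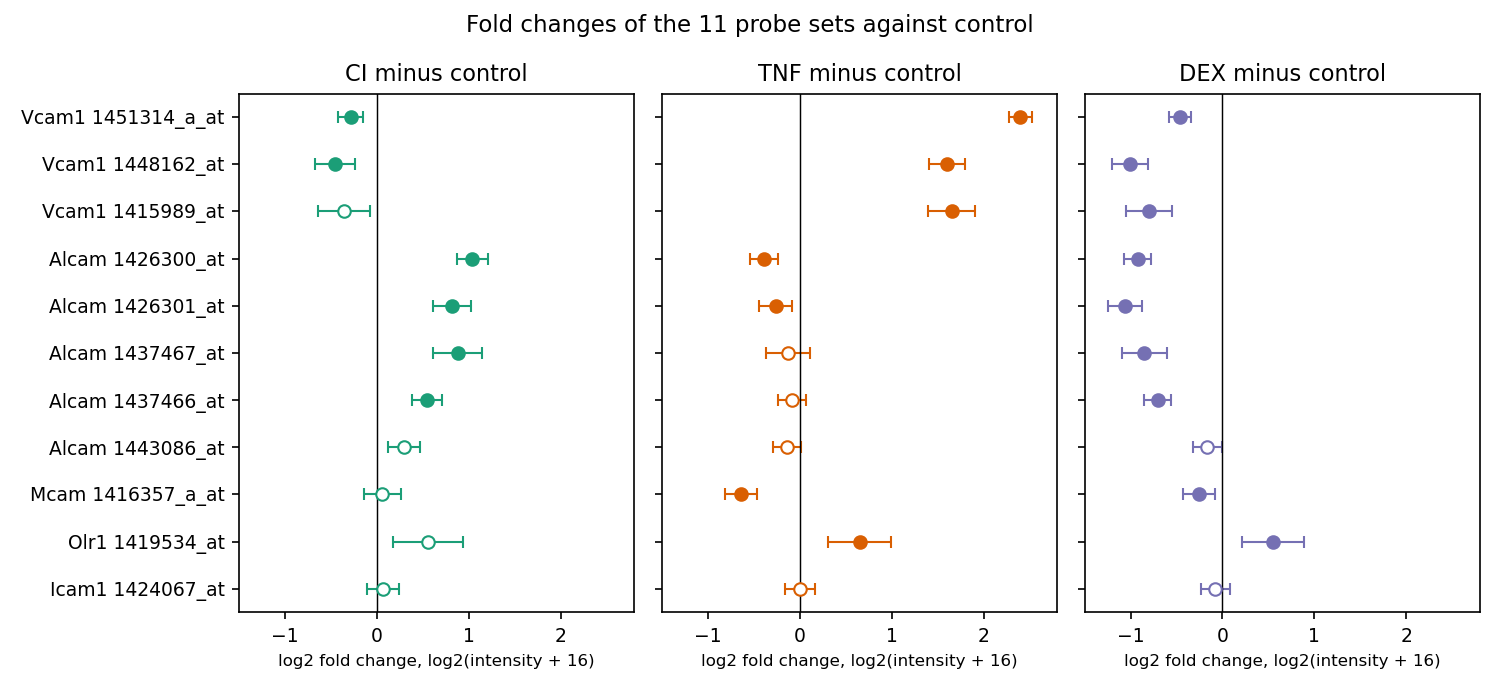
Fold changes of the 11 probe sets in CI, TNF and DEX against control on the log2(intensity + 16) scale, with 95% intervals. Filled points passed at an adjusted p under 0.05, and Alcam 1443086_at, always open, was not tested: Vcam1 is far to the right in TNF (1.61 to 2.40), Alcam to the right in CI (0.54 to 1.04 on its tested probe sets), and both to the left in DEX.

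Promoter sequences, from 250 bases before to 50 after the annotated start, were matched by symbol for 4 of the 5 genes in RefSeq (GRCm38.p6), all but Vcam1. They were searched on both strands for a kappaB motif (GGNNTTTCC, in 5.82% of 32851 promoters of that length), an AP-1 motif (TGANTCA, 7.81%), the glucocorticoid receptor palindrome (GNACANNNTGTNC, 0.475%), an interferon-stimulated response element (TTTCNNTTTC, 3.44%), a GC box (GGGCGG, 35.7%) and a TATA box (TATAAA, 13.6%). Icam1 is shown because it carries kappaB letters and did not pass in TNF, Alcam because it moved most clearly in CI and DEX, and Olr1 for its AP-1 letters. Capitals mark the matches, on either strand.
Icam1, chr9:21015690-21015989, plus strand: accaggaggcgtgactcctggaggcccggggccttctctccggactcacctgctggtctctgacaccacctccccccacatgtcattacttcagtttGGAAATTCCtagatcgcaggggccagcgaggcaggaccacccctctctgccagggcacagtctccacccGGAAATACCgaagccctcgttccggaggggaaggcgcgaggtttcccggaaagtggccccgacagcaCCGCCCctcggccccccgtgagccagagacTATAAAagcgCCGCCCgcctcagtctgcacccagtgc
Alcam, chr16:52453032-52453331, minus strand: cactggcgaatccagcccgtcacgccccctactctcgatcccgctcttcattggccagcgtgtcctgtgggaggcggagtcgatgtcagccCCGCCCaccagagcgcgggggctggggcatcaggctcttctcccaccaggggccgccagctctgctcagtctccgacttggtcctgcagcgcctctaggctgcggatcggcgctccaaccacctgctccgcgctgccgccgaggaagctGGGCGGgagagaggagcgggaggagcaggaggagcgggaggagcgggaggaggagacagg
Olr1, chr6:129507116-129507415, minus strand: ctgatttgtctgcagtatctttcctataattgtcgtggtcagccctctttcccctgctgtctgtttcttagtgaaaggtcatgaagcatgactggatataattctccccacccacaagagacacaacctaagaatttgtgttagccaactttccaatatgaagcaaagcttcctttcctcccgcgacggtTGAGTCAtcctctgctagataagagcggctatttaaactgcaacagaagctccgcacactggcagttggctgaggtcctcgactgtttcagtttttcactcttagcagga

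In Icam1 the kappaB letters matched at 2 places, starting 153 and 84 bases before the annotated start and both on the opposite strand. TATA letters stood 14 bases into the transcript, and GC boxes at 2 places. Alcam held 2 GC boxes and Mcam 5, with no match to the other 5 motifs. Olr1 held AP-1 letters 60 bases before the start and none of the others. None of the 4 held the glucocorticoid receptor palindrome in this window. A match is a description of letters and not of binding.

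The genes most like each of the 5 over the 11 arrays were found by Pearson correlation of log2 values, with 1 probe set a gene. The arrays share 4 groups, and r is given as a description. Vcam1 (1451314_a_at) was most like the chemokine genes Ccl5 (r = 0.997) and Ccl8 (0.996), then Actn1, an actin cross-linker (0.992), and Dclk1 (0.991). Their TNF changes were 3.58, 3.07, 0.59 and 1.28, against 2.40 for Vcam1. Alcam was most like Hsd17b12, a fatty acid elongation enzyme (0.990), BC023105 (0.990), Fam241a (0.986) and Mgll, the monoglyceride lipase of lipolysis (0.985). Mgll was at 0.85 in CI, -0.57 in TNF and -1.12 in DEX, against 1.04, -0.39 and -0.92 for Alcam. Mcam was most like Lonp2, a peroxisomal protease (0.977), Tlr8 (0.963), Pmpcb, a subunit of the mitochondrial processing peptidase (0.960), and Armc8 (0.952). Olr1 was most like Polr1a (0.934), Nup133 (0.922), Atp6v1b2 (0.903) and Cct4 (0.900), whose log2 changes were 0.11 to 0.20 in the 3 treatments. Icam1 was most like Them5 (0.901), Kif3b (0.857), Ica1 (0.848) and Ccdc65 (0.836). These are the highest r of all genes tested, for a probe set that passed in no comparison. How high r would reach among so many unrelated genes was not tested. Between the brightest probe sets of the 5 genes r ran from -0.80 for Vcam1 with Mcam to 0.56 for Mcam with Alcam.

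Of 13 tested ligand and integrin genes that partner the 5 proteins 1 rose and 0 fell in CI, 2 rose and 0 fell in TNF, and 1 rose and 2 fell in DEX, where 14.9%, 22.1% and 25.1% of all genes passed. The median log2 changes were 0.03, -0.01 and 0.01, against 0.01, -0.01 and 0.02 over all genes tested. Lgals3, a galectin, passed in all 3 (0.74, 0.22 and 0.19), and Lgals8 rose in TNF (0.30). Itgb2, the chain of the Icam1-binding integrins, fell in DEX to 130.9 ± 7.60, against 269.2 ± 6.56 in control (SD, n = 3 each, -0.96, adjusted p = 9.99e-07). Lama4, the laminin chain bound by Mcam, fell in DEX to 1581 ± 89.2, against 2416 ± 183 in control (SD, n = 3 each, -0.61, adjusted p = 8.65e-06). Itga4, the chain of the Vcam1-binding integrin, was dim (69.7 to 90.5) and did not pass in any treatment against control.

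Of 13 other leukocyte adhesion receptors of endothelium tested, 1 rose and 1 fell in CI, 3 rose and 0 fell in TNF, and 1 rose and 1 fell in DEX (median 0.04, -0.06 and 0.03). Over all genes tested, 14.9% passed in CI, 22.1% in TNF and 25.1% in DEX. Cd99, a molecule used in leukocyte passage through vessel walls, was at -0.46 in CI, 0.92 in TNF and 0.58 in DEX. Jam3, a junctional adhesion molecule, rose in TNF (0.57, adjusted p = 1.32e-05), and so did Icam5 (0.49). F11r, another junctional molecule, rose in CI (0.26) and fell in DEX (-0.37). The endothelial marker genes lay at a summed intensity of 1524 to 1614 in CI, 1503 to 1621 in TNF, 1502 to 1522 in DEX and 1537 to 1558 in control. Of the 12, 5 were under the limit for testing, 0 of the 7 tested passed in CI or TNF by limma (0 in CI and 2 in TNF at an unadjusted p under 0.05), and 1 rose (Cldn5, 0.26) and 1 fell (Egfl7, -0.28) in DEX.

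Among other immunoglobulin and hyaluronan adhesion molecules, 2 rose and 2 fell in CI, 3 rose and 2 fell in TNF, and 2 rose and 4 fell in DEX, of 17 tested (median 0.01, -0.01 and -0.11). The shares of all genes tested that passed were 14.9% in CI, 22.1% in TNF and 25.1% in DEX. Cd44, the hyaluronan receptor, rose in TNF to 1835 ± 28.3 and fell in DEX to 519.8 ± 31.4, against 871.8 ± 82.4 in control (SD, n = 3 each, 1.06 and -0.73). Cd47, a thrombospondin receptor, was at 0.66 in CI, 0.21 in TNF and -0.26 in DEX, and Pvr, a nectin-like receptor, at 0.50, -0.20 and -0.27, each passing in all 3. Thy1 fell in CI (-0.53) and DEX (-0.54), Ncam1 fell in CI (-0.48) and TNF (-0.36), and Nectin2 rose in TNF (0.58).

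Of 11 cadherin and catenin genes 0 rose and 3 fell in CI, 3 rose and 1 fell in TNF, and 3 rose and 2 fell in DEX (median -0.05, 0.04 and 0.02). Among all genes tested 14.9% passed in CI, 22.1% in TNF and 25.1% in DEX. Cdh11, the mesenchymal cadherin, fell in CI (-0.54) and DEX (-0.54) and rose in TNF (0.35). Cdh13, a cadherin that binds adiponectin, rose in DEX to 980.2 ± 71.3, against 389.8 ± 37.4 in control (SD, n = 3 each, 1.30). Cdh2 was at -0.29, 0.44 and 0.68, and Jup, a plaque protein, at -0.32, -0.22 and -0.37, both passing in CI, TNF and DEX.

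The proteases that release adhesion molecules from the cell surface, listed with their inhibitors, mostly rose in TNF. Of 13 tested 9 rose and 0 fell there (median 0.31), while 1 rose and 4 fell in CI (-0.03) and 4 rose and 3 fell in DEX (0.05). Across all genes tested 22.1% passed in TNF, 14.9% in CI and 25.1% in DEX. Adam17, which cleaves the Vcam1 protein, rose in TNF to 1121 ± 19.0, against 707.5 ± 31.3 in control (SD, n = 3 each, 0.65, adjusted p = 5.41e-06). Adam10, which cleaves the Alcam protein in some cells, was at 0.49 in TNF, and Adam9 at 0.46 in TNF and 0.40 in DEX. Mmp9 (1.31) and the inhibitor Timp1 (1.78) had the largest TNF changes of the list. Timp2 (-0.74, 0.25 and 0.35), Mmp2 (-0.39, 0.31 and 0.25) and Mmp14 (-0.50, 0.51 and -0.26) passed in all 3, and Timp3 fell in CI (-0.58) and DEX (-1.56).

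Cytoskeletal and tetraspanin partners, to which the tails of adhesion molecules are tied, were 14 in number. Of these 1 rose and 1 fell in CI, 6 rose and 1 fell in TNF, and 3 rose and 1 fell in DEX (median 0.03 in CI and 0.08 in TNF). For all genes tested the shares passing were 14.9% in CI, 22.1% in TNF and 25.1% in DEX. Actn1 (0.59) and Msn (0.27), an anchor of the Vcam1 and Icam1 tails, rose in TNF, and Cd151, a tetraspanin known to gather Vcam1, fell there (-0.47). Cd9 rose in TNF (0.29) and DEX (0.50), and Cd82 fell in DEX (-0.74).

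Of 21 tested scavenger receptors and relatives of Olr1 1 rose and 3 fell in CI, 6 rose and 0 fell in TNF, and 3 rose and 1 fell in DEX (median -0.02, 0.07 and 0.01), where 14.9%, 22.1% and 25.1% of all genes passed. Colec12, a scavenger receptor with a collagen-like stalk, was at -0.77 in CI, 0.53 in TNF and 0.36 in DEX and passed in each. Scara5, a ferritin receptor, rose in DEX to 4887 ± 384, against 1890 ± 146 in control (SD, n = 3 each, 1.36). Lrp1 (0.71), Scarf2 (0.53) and Cxcl16 (0.48) rose in TNF, and Vldlr fell in DEX (-0.60).

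NF-kappaB subunits and feedback genes rose in TNF, where Vcam1 rose and Icam1 did not pass: of 13 tested 10 rose and 0 fell (median 0.69). Nfkbie was at 2.56, Tnfaip3 at 1.41 and Tnip1 at 0.86. In DEX 4 rose and 0 fell (median 0.05), among them the inhibitor Nfkbia, at 7982 ± 167 in DEX, 8149 ± 554 in TNF and 4852 ± 312 in control (SD, n = 3 each). In CI 1 rose, Traf2 (0.38), and 0 fell (median -0.02). Of 14 glucocorticoid receptor targets 12 rose and 1 fell in DEX (median 1.72), with Fkbp5 at 2.71, Errfi1 at 2.38 and Tsc22d3 at 1.99. In CI 2 rose and 3 fell (median -0.14), and in TNF 3 rose and 0 fell (median -0.05). Beside both lists, 14.9% of all genes tested passed in CI, 22.1% in TNF and 25.1% in DEX. The lists were chosen with earlier results of these data known, so their counts are a description and not a test.

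**Figure D5:**
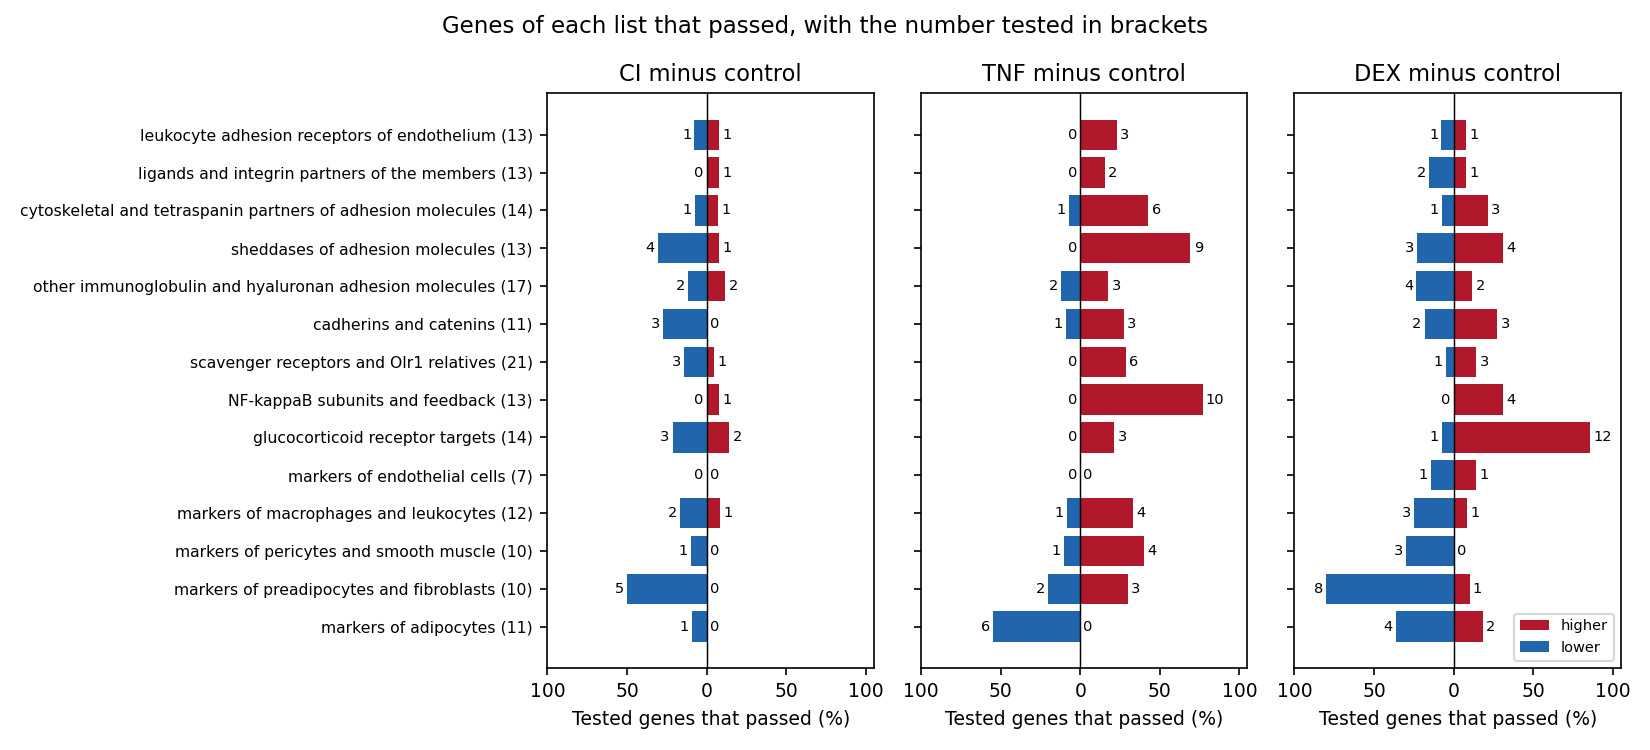
Share of the tested genes of each of 14 lists that passed in CI, TNF and DEX against control, higher to the right in red and lower to the left in blue, with the number of genes at each bar. Glucocorticoid receptor targets in DEX (12 of 14 higher), NF-kappaB genes in TNF (10 of 13 higher) and preadipocyte markers in DEX (8 of 10 lower) have the longest bars. The lists were chosen with earlier results of these data known.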

How the data were processed

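Gene expression was measured on 11 Affymetrix arrays, hybridised with biotin-labelled cRNA from 3 µg of total RNA per the labels' protocols. The authors deposited linear intensity values, 1 per probe set and array. The steps behind them are not given in the sources used here, and 0 value columns belonged to no sample. Intensities ran from 6.01 to 25933, and on the log2 scale the arrays' quartiles lay within 0.0765 of each other, so no further normalization was applied. Arrays of a group had Spearman correlations of 0.996 to 0.998 and 9 to 30 identical values per pair, and none was a copy of another. The number of arrays limits the precision.

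Groups and replicate numbers came from the sample titles. Values were transformed as log2(intensity + 16), which understates changes of dim probe sets. The 64 control probe sets and those with a mean over all arrays under the 25th percentile (51.7) were left out, leaving 33782. limma 3.58.1 in R 4.3.3 (lmFit, contrasts, eBayes, two-sided) was fitted with 1 mean for each of the 4 groups over the 11 arrays (7 residual and 6.54 prior degrees of freedom). Passing means a p-value under 0.05 after Benjamini-Hochberg adjustment over all 33782. Errors beside intensities are SDs and beside fold changes standard errors.

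The platform annotation gave 1 symbol for 34945 probe sets, several for 932 and none for 9160. By gene identifier 34741 were matched in RefSeq, and 0 symbols changed. For the 14 gene lists (207 entries, 199 genes, 174 tested) the probe set with the highest mean was used. The treatment checks named are Saa3, Nfkbia, Fkbp5 and Tsc22d3, while Ccl2 and Per1 were also planned as checks and are not shown. The text names all 11 probe sets, the 4 most correlated genes per member and defining markers of the cell types. From each list it names up to 4 genes with the smallest adjusted p in each treatment, and genes that passed in all 3. Adam10 is named outside that rule and was chosen after its values were seen. The members and lists were chosen with earlier results of these data known. Alternatives were the pseudocount, the filter, the scaling, the groups fitted, the variance model, the features tested, the replicate number as a block, and leaving out each array. The fit was tested on simulated data.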

Additional observations from a re-analysis of the deposited data

How the results depend on the processing

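No fold change of the 10 tested probe sets that had passed changed sign under any alternative, among them centring and quantile normalization. Mcam in DEX (-0.25) lost its call without the filter on dim probe sets (adjusted p = 0.0532), with only the 2 groups compared (0.0597) and with the replicate number as a block (0.0507). Olr1 in DEX (0.55) lost it with an intensity trend and robust eBayes (0.0537). Olr1 in CI gained it with 1 probe set per gene (0.55, adjusted p = 0.0368) and with the replicate block (0.62, adjusted p = 0.0417). Alcam 1426301_at in TNF lost it with a pseudocount of 1 (adjusted p = 0.0505), without the filter (0.0571), with median centring (0.0584) and with only the 2 groups compared (0.0635). Vcam1 1451314_a_at in DEX against CI gained it with a pseudocount of 64 (adjusted p = 0.0316) and without the filter (0.0477). It also passed with the filter at the median (0.0360) and with trend and robust eBayes (0.0461). The same held for 1 probe set per gene (0.0390) and the replicate block (0.0468). With 1 mean per gene, which averages all Vcam1 probe sets, the difference was -0.39 (adjusted p = 0.00298). The cause of these moves was not tested.

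With 1 probe set per gene 2696 features passed in CI, 3930 in TNF, 4316 in DEX, 5656 for TNF against CI, 5645 for TNF against DEX and 5311 for DEX against CI. With 1 mean per gene they were 2432, 3747, 4207, 5453, 5561 and 5116, against 4342, 6402, 7503, 10127, 9900 and 9614 probe sets. Fewer features were tested, 15623 and 15187 against 33782, and the share of them that passed was higher in every comparison. The share of passing probe sets that were higher depended on the scaling: it was 65.0% with median centring, 49.6% with quantile normalization and 57.0% without either in TNF, 60.6%, 48.4% and 51.7% for TNF against CI, and 60.0%, 47.3% and 50.3% for TNF against DEX. Leaving out 1 array gave 2149 to 4918 probe sets passing in CI, with 2873 without control replicate 2, 2149 without CI replicate 1 and 2602 without CI replicate 2. A lone CI array takes its spread from the other groups. Over the same 11 repeats the fold change of Mcam in DEX ran from -0.32 to -0.18, of Olr1 from 0.39 to 0.75 in CI, 0.49 to 0.85 in TNF and 0.39 to 0.75 in DEX, and of Vcam1 1451314_a_at in CI from -0.30 to -0.26.

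Between same-numbered arrays of different groups the correlation of deviations was -0.31 to 0.36 (median -0.03, 15 pairs, 5 over 0.1). For arrays with different numbers it was -0.38 to 0.31 (median 0.04, 30 pairs, 12 over 0.1). Deviations from the mean of so few arrays are tied to each other, so whether the numbers pair the samples cannot be told. With the block 4214 probe sets passed in CI, 6265 in TNF and 7521 in DEX. Icam1 and Olr1 are limited by low signal.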
